A study of Homo sapiens with 8 samples.

Results

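The genes described here encode the machinery that stores transmitters, hormones and peptides in vesicles and releases them on a calcium signal. They were chosen by name, for their function and with earlier results of these data known, and number 54 of the 35238 gene symbols in the count table: 9 vesicle membrane proteins and synapsins, 15 synaptotagmins and other calcium sensors with C2 domains, 6 SNARE proteins and complexins, 12 genes of the active zone, of vesicle priming and of the RAB3 family, 3 of endocytosis, and 9 of dense-core granule cargo and its processing. RNA was measured by bulk sequencing in MP38 cells, a human uveal melanoma line that carries a BAP1 mutation. The cells received 1 of 4 treatments for 24 h: 0.1% DMSO as the control, 40 nM romidepsin, 40 nM quisinostat or 1200 nM mivebresib, the drugs also in DMSO. Romidepsin and quisinostat inhibit histone deacetylases (HDACs) and mivebresib inhibits the BET bromodomain proteins, so that the comparisons ask how a set of neuronal and neuroendocrine genes responds to each in a melanocytic tumour cell. Each group was 2 wells of 1 cell line, and p-values therefore measure the spread between wells and not between tumours.

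In neurons and endocrine cells, a vesicle is filled, tethered at the active zone by RIM, bassoon and piccolo, primed by the UNC13 proteins, and fused by the SNARE proteins SNAP25, syntaxin 1 and VAMP2 when a synaptotagmin binds calcium. Small synaptic vesicles are refilled locally after endocytosis, whereas dense-core granules leave the Golgi loaded with granins and peptide precursors that convertases cut on the way. Melanocytes share a neural crest origin with several of these cell types, and many of the genes are known targets of the repressor REST, which recruits HDACs.

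Total counts ran from 28483235 to 29359024 per library. Replicates were furthest apart in the control group, with a chi-square per degree of freedom of 58.1 against 9.52 to 9.79 in the drug groups. The melanocytic markers TYRP1, PMEL, MITF, SOX10 and MLANA were abundant in all 8 libraries (at least 1468 counts), whereas TYR had 42 to 111 counts and DCT 0 to 5. In bulk RNA, more cells that express a gene cannot be told apart from more RNA per cell.

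In control cells most members were low. Of the 54, 51 entered the test and 3 (SYT4, RAB3C and RIMS1) had at most 6 counts in any library. Only 31 exceeded the filter's cutoff of 0.345 CPM (counts scaled to library size) in both control libraries, and 8 had at most 3 counts in each of them. A further 20 tested members were under the cutoff in at least 1 control library and entered mainly through the drug groups. Those under it in both control libraries had to be over it in drug libraries to be tested, which favours rises among them. Per length, in counts per kilobase of exon scaled to library size (RPKM), the highest control levels were those of the granule genes VGF at 35.6 ± 2.7 (SD, n = 2), PCSK1 at 11.2 ± 3.2 and SCG5 at 9.25 ± 1.88, followed by VAMP2 at 7.71 ± 0.39. The levels of PCSK1 and SCG5 differed by less than their spread. The fast calcium sensors of neurons, SYT1 and SYT2, stood at 0.0721 and 0.0439 RPKM.

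All 3 drugs raised members of the set, and quisinostat raised most of them. At an adjusted p below 0.05 in edgeR's quasi-likelihood test, 23 members rose and 1 fell with romidepsin, where 15.2% of all 15085 genes tested rose and 15.8% fell. With quisinostat 43 rose and 1 fell, where 28% of all genes rose and 25.1% fell. With mivebresib 20 rose and 8 fell, against 22.2% and 24.1% of all genes. Beyond a log2 FC of 1.5 the numbers of members raised were 13, 35 and 13 (3.77%, 11.2% and 3.96% of all genes), for romidepsin, quisinostat and mivebresib, and 1 member, SCG5, fell that far with mivebresib (4.36% of all genes), or 3 members without control replicate 1 and 2 without either mivebresib library. None fell that far with romidepsin (0.312% of all genes) or quisinostat (1.03%) in edgeR, DESeq2 or limma-voom, and 0 did so at an unadjusted p below 0.05. Of the members called, 15 of 24 with romidepsin, 31 of 44 with quisinostat and 20 of 28 with mivebresib kept the call in every other fit and without each library in turn, and a further 6 with quisinostat and 1 with mivebresib kept it in the fits that tested them but were too low for at least 1 other. Without romidepsin replicate 1 the number raised by romidepsin was 15. Among the 31 members over the cutoff in both control libraries, a grouping chosen after the data were seen, 15 rose and 1 fell with romidepsin, 24 rose and 1 fell with quisinostat, and 12 rose and 7 fell with mivebresib. Their median log2 FC was 0.66, 1.59 and 0.25, beside medians of -0.012, -0.0036 and 0.0067 over all genes. The summed level of the 54 genes was 369 and 419 CPM in the control libraries, 585 and 592 with romidepsin, 914 and 1007 with quisinostat and 552 and 510 with mivebresib. Much of the difference with mivebresib lay in BAIAP3 and UNC13B. BAIAP3 had means of 4.86 CPM in control and 78.6 with mivebresib, and UNC13B of 62.9 and 117.

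**Figure D1:**
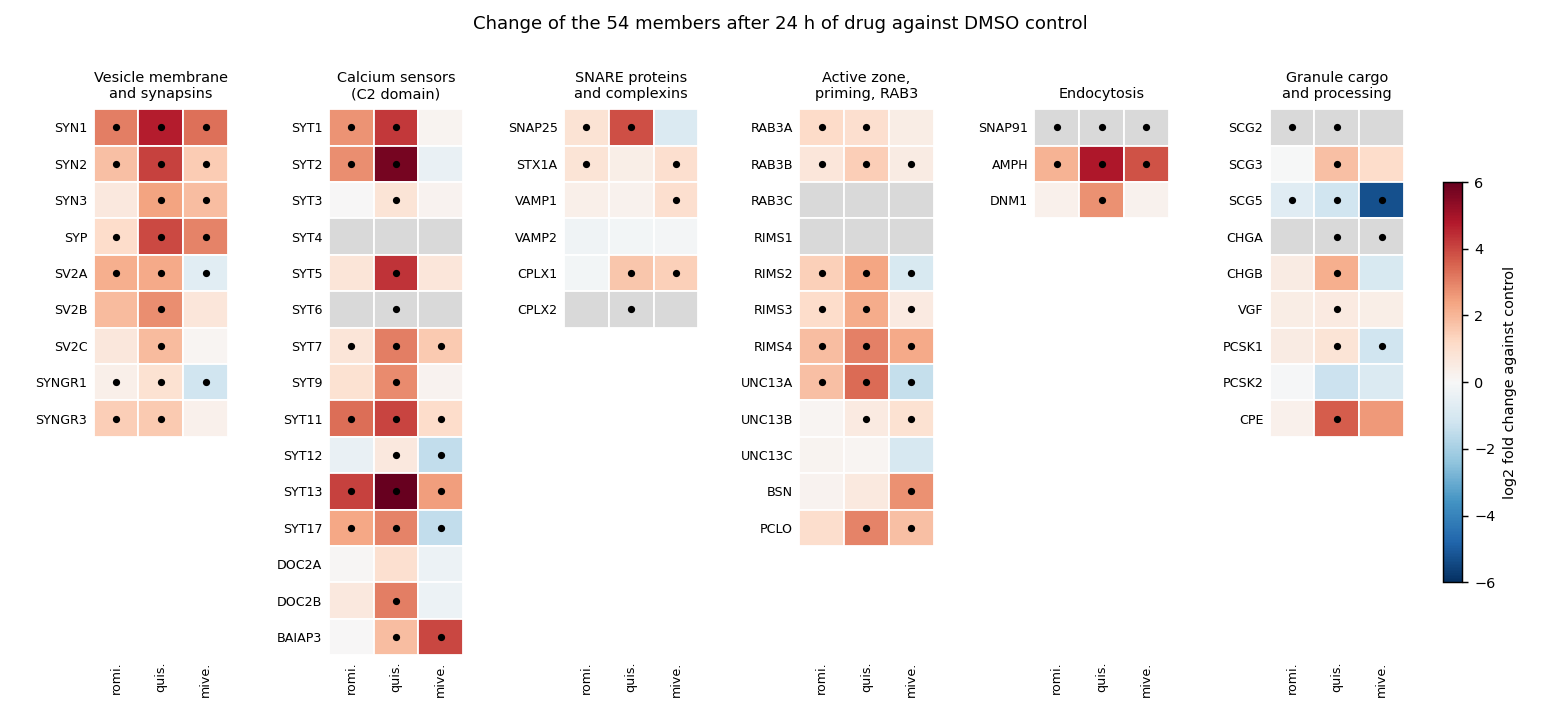
Colour gives the log2 fold change of each of the 54 members against control for romidepsin, quisinostat and mivebresib, in 6 blocks by role, and a black dot marks an adjusted p below 0.05 in edgeR (n = 2 libraries a group). Values beyond 6 take the end colour, grey cells are members with at most 3 counts in each control library, for which no fold change is drawn, and the quisinostat column holds 44 dots, the most of the 3.

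The directions differed by drug. The 3 comparisons share the control libraries, so that their calls are not independent, and the share of all genes with each pattern was not counted. Of the 54 members, 11 passed the test as raised with all 3 drugs. Another 6 rose with both HDAC inhibitors and had no call with mivebresib. A call with quisinostat and with no other drug was found for 13, all of them raised, and 6 rose with quisinostat and mivebresib only. Among the 13, SYT6, SYT9, CPLX2 and CHGB were over the filter's cutoff in the quisinostat libraries only. They could be tested only because they were high there. SV2B, SYT5 and CPE were also under the cutoff in both control libraries. A group of 5 (SV2A, SYNGR1, SYT17, RIMS2 and UNC13A) rose with both HDAC inhibitors and fell with mivebresib, and SYT12 and PCSK1 rose with quisinostat and fell with mivebresib. VAMP1 and BSN passed with mivebresib and with no other drug, STX1A rose with romidepsin and mivebresib, and SCG5 fell with all 3. The remaining 4 tested members (DOC2A, VAMP2, UNC13C and PCSK2) passed no test against control.

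The vesicle membrane proteins and synapsins all rose with quisinostat, 9 of 9, and 6 rose with romidepsin. Mivebresib raised 4 of them and lowered 2. For this role and those below, the shares of all genes that rose were 15.2%, 28% and 22.2% with romidepsin, quisinostat and mivebresib. With mivebresib 24.1% of all genes fell. SYN1, SYN2, SYN3 and SV2B were under the filter's cutoff in both control libraries and entered the test through the drug libraries. Synapsins coat vesicles and tether them in a reserve pool. SYN1 had 7 and 5 counts in the control libraries, 54 and 54 with romidepsin, 172 and 196 with quisinostat and 62 and 56 with mivebresib. No drug library overlapped the controls. Such a lack of overlap, here and below, was common. Both drug libraries stood above both controls for 31.2%, 38.4% and 35.4% of all genes with romidepsin, quisinostat and mivebresib, and below for 32.5%, 35.8% and 34.3%. The log2 FC of SYN1 was 3.08 ± 0.28 (SE), 4.73 ± 0.25 and 3.28 ± 0.28, with edgeR adjusted p-values of 0.000195, 3.38e-06 and 4.21e-05. SYN1 lies at chrX:47571898-47619943 on the minus strand (hg38, GENCODE 29). It shares 23 exonic bases with ARAF on the other strand, whose counts (760 to 1324) followed no such order.

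The SYN1 promoter is shown because it holds letters of both kinds of element searched for by factor: the cyclic AMP response element TGACGTCA and the left (TTCAGCACC) and right (GGACAG) parts of the REST element, each on either strand. The window runs from 250 bases before the RefSeq start to 30 after it, chrX:47619828-47620107 on the minus strand of GRCh38.p14, and capitals mark the matches.
SYN1: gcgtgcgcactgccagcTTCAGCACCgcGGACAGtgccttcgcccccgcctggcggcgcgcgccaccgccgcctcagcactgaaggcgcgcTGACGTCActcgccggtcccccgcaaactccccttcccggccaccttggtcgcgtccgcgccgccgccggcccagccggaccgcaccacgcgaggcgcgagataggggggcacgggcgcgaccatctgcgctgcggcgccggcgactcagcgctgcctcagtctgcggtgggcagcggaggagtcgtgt
The left and right REST parts began at -233 and -222 and the cyclic AMP element at -159. In windows that reach 50 bases past the start, 3 of the 40 members with a RefSeq promoter held the left REST part (7.5%, against 0.376% of all 35116 promoters): SYN1, UNC13A and SCG3. The right part, a shorter word, was in 11 (27.5% against 20.5%). The cyclic AMP element was in 4 (10% against 1.85%): SYN1, VGF, PCSK1 and CHGA. The GC box GGGCGG was in 30 (75% against 45%) and TATAAA in 1, VGF (2.5% against 11.5%). Member promoters also had a higher median GC content, 68% against 58.7%, and these matches are letters in a window and not measured binding. REST itself fell slightly with romidepsin (1548 and 1636 counts against 1396 and 1325, log2 FC -0.29 ± 0.08, edgeR adjusted p = 0.0309) and passed no test with quisinostat (1811 and 1867) or mivebresib (1342 and 1490).

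Synaptophysin, SYP, the membrane protein most used to mark synaptic vesicles, went from 14 and 26 counts in control to 43 and 46 with romidepsin, 350 and 357 with quisinostat and 159 and 160 with mivebresib. Quisinostat stood highest and none of the groups overlapped. The log2 FC was 1.08 ± 0.27 with romidepsin and 3.95 ± 0.22 with quisinostat, and mivebresib raised it 7.99-fold. The romidepsin call (edgeR adjusted p = 0.0177) was lost in a fit of the 4 libraries alone (0.0823) and without control replicate 1 or either romidepsin library. SYN2, at 5 and 4 counts in control, reached 109 and 72 with quisinostat (log2 FC 4.11 ± 0.40), and its smaller rises to 17 and 17 with romidepsin and to 16 and 10 with mivebresib were lost without 1 library (highest edgeR adjusted p = 0.0954 and 0.205), the latter also in DESeq2 and limma-voom. SYN3, at 5 and 9, reached 46 and 40 with quisinostat (2.42 ± 0.36) and 28 and 23 with mivebresib (1.86 ± 0.38). Romidepsin left SYN3 at 11 and 12 counts. All 3 synapsins thus rose with quisinostat. TIMP3, which lies inside SYN3 on the other strand without exonic overlap, moved in another order (3038 and 3941, 6950 and 5891, 3740 and 3919, 1250 and 1208).

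SV2A, a vesicle glycoprotein and the target of levetiracetam, separated the drug classes. Its counts were 166 and 259 in control, 1078 and 930 with romidepsin, 1068 and 1278 with quisinostat, and 134 and 129 with mivebresib. The HDAC inhibitor libraries were all above and the mivebresib libraries both below the controls, with a log2 FC of 2.17 ± 0.20, 2.28 ± 0.20 and -0.68 ± 0.22. The fall of SV2A with mivebresib did not pass in limma-voom (adjusted p = 0.0718) or, in edgeR, without control replicate 2 (adjusted p = 0.2) or either mivebresib library. SYNGR1, a synaptogyrin of the vesicle membrane and the most expressed gene of this role per length in control, followed the same order: 481 and 540, 679 and 673, 1029 and 1141, and 232 and 210 counts. Its rise with romidepsin was small (log2 FC 0.34 ± 0.11), and the edgeR adjusted p of 0.0428 became 0.174 without romidepsin replicate 1. Its fall with mivebresib was -1.20 ± 0.12 (edgeR adjusted p = 7.9e-05). SYNGR3 rose with both HDAC inhibitors, from 156 and 91 to 354 and 363 and to 404 and 439 counts, and had 152 and 150 with mivebresib. SV2C rose with quisinostat, from 52 and 97 to 303 and 331 counts, and passed no other test against control (137 and 117 with romidepsin, 81 and 82 with mivebresib). SV2B reached 30 and 18 counts with quisinostat from 0 and 6, beside 13 and 11 and 7 and 3 with the other drugs, and the rise did not hold without quisinostat replicate 1 (edgeR adjusted p = 0.0988).

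**Figure D2:**
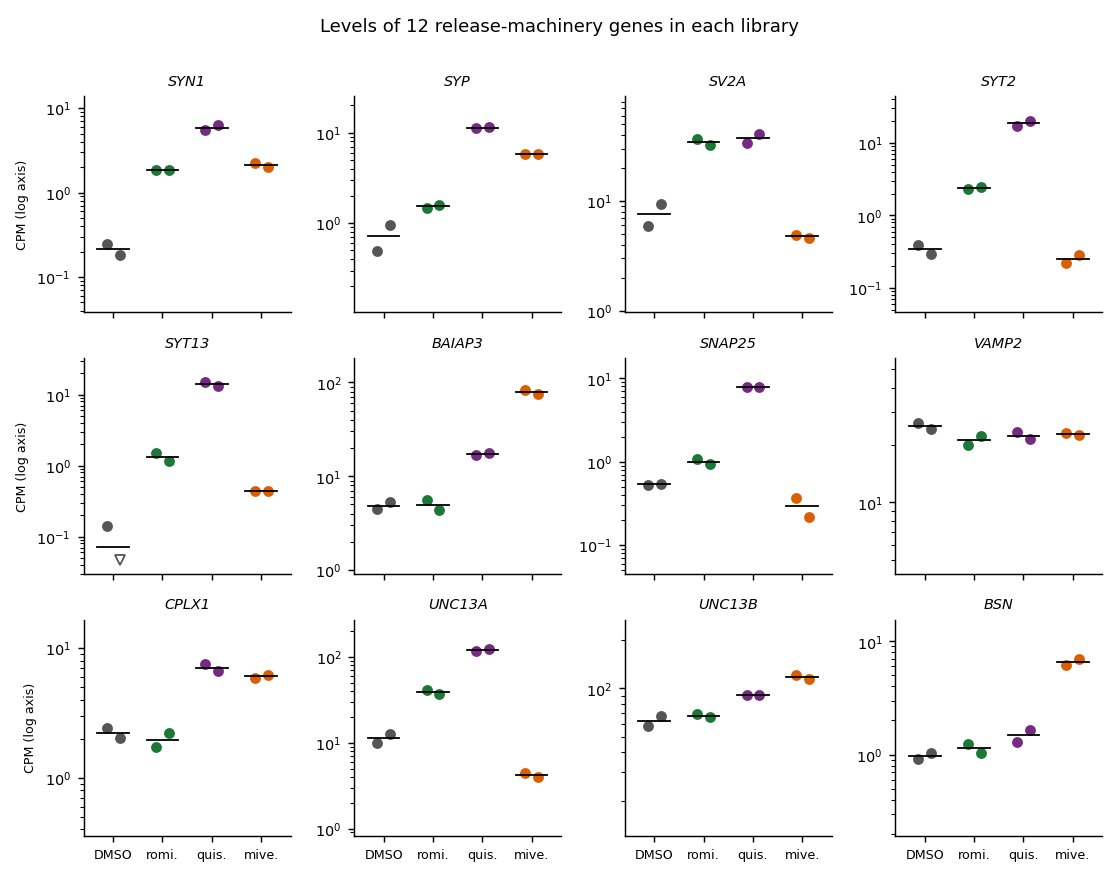
Points give the level in each library, in CPM on a log axis with its own range in each panel, and lines the mean of the 2 libraries, and an open triangle at the lower edge stands for 0 counts. SYN1 and SYP rose with all 3 drugs, SV2A and UNC13A rose with both HDAC inhibitors and fell with mivebresib, BSN rose with mivebresib, and VAMP2 stayed between 587 and 739 counts.

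Of the 15 calcium sensors, romidepsin raised 6, quisinostat 13 and mivebresib 4, and mivebresib also lowered SYT12 and SYT17. SYT5, SYT6, SYT9 and SYT13 were under the filter's cutoff in both control libraries and entered the test through the drug libraries. SYT1 and SYT2 are the fast calcium sensors of synaptic vesicle release. SYT2 had 11 and 8 counts in control, 67 and 72 with romidepsin, 546 and 627 with quisinostat and 6 and 8 with mivebresib. The log2 FC was 2.79 ± 0.24 and 5.75 ± 0.20 with the HDAC inhibitors (edgeR adjusted p = 0.000156 and 7.78e-07). With mivebresib it was -0.42 ± 0.38 (edgeR adjusted p = 0.494). SYT2 lies at chr1:202590596-202710417 and shares 2111 exonic bases with PPP1R12B on the other strand. PPP1R12B had 570 and 623, 866 and 804, 660 and 747, and 400 and 582 counts in the same order of groups. The part of the shared bases in the SYT2 values was not tested. SYT1 rose in the same order, from 12 and 14 to 80 and 95 and to 286 and 276 counts, and had 8 and 21 with mivebresib (log2 FC 2.67 ± 0.32, 4.24 ± 0.29 and 0.17 ± 0.43). The last value was -0.67 without mivebresib replicate 2.

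SYT13, a synaptotagmin that does not bind calcium, had the largest log2 FC with quisinostat among members with more than 3 counts in a control library. It had 4 and 0 counts in control, 43 and 34 with romidepsin, 468 and 416 with quisinostat and 12 and 12 with mivebresib. All drug libraries were above the controls. The log2 FC of 7.52 ± 0.39 with quisinostat rests on a control near 0. It was 6.58 without control replicate 2 and 11.7 without control replicate 1, which left a control of 0 counts. The rise with mivebresib (edgeR adjusted p = 0.0174) lost its call without mivebresib replicate 2. SYT11, which likewise lacks calcium binding, went from 40 and 34 to 455 and 349, 608 and 767, and 79 and 79 counts, with a log2 FC of 3.37 ± 0.21, 4.03 ± 0.20 and 1.10 ± 0.24. SYT7, the slow sensor of granule and lysosome fusion, went from 95 and 124 to 193 and 200, 1058 and 1017, and 330 and 321 counts, with a log2 FC of 0.78 ± 0.14, 3.06 ± 0.13 and 1.58 ± 0.14. Both genes thus rose with every drug and most with quisinostat. SYT6 was at 0 counts in every library but those of quisinostat, with 16 and 15, at least 4.56-fold above a floor of 3 counts per library.

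SYT5, DOC2B and SYT9 rose with quisinostat and passed no other test against control. SYT5 had 4 and 8 counts in control, 11 and 11, 133 and 151, and 11 and 9 with the drugs. DOC2B had 24 and 16, then 27 and 39, 190 and 190, and 13 and 18. SYT9 had 7 and 0, then 9 and 5, 27 and 32, and 6 and 2, and lost the call without quisinostat replicate 2 (edgeR adjusted p = 0.0646). SYT3, the synaptotagmin with the highest control level (2.91 ± 0.13 RPKM), rose with quisinostat by a log2 FC of 0.84 ± 0.12: 301 and 311 counts in control, 328 and 323 with romidepsin, 612 and 629 with quisinostat, and 388 and 314 with mivebresib. Its share of the RNA of the 12 synaptotagmins per length was 66.4% in control, 35.4% with romidepsin and 22.4% with quisinostat, while that of SYT11 was 5.83%, 31.5% and 17.9%. These shares are means of 2 libraries and were not tested. SYT17 rose with the HDAC inhibitors (11 and 9 to 52 and 54 and to 102 and 76) and had 3 and 4 counts with mivebresib, where the fall had an edgeR adjusted p of 0.0349, and was lost in DESeq2 (0.0771), in limma-voom (0.0574) and without any 1 library (highest 0.137, without mivebresib replicate 1). SYT12 fell with mivebresib from 80 and 106 to 28 and 39 (log2 FC -1.46 ± 0.26). Its small rise with quisinostat (142 and 181) was lost in DESeq2 (adjusted p = 0.0687) and without quisinostat replicate 2 (edgeR adjusted p = 0.26).

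BAIAP3, a C2-domain protein of dense-core granule maturation related to the UNC13 family, had the largest log2 FC with mivebresib among members with more than 3 counts in a control library. It had 125 and 145 counts in control, 161 and 126 with romidepsin, 538 and 558 with quisinostat, and 2258 and 2075 with mivebresib. The romidepsin libraries overlapped the controls and the others did not. Against control it changed by a log2 FC of 0.02 ± 0.15 with romidepsin, 1.84 ± 0.14 with quisinostat and 4.01 ± 0.14 with mivebresib, a 16.2-fold change (edgeR adjusted p = 9.97e-07). BAIAP3 lies at chr16:1333601-1349441 and shares 202 exonic bases with TSR3 on the other strand, which had 796 to 1516 counts. At this level, 12.8 RPKM with mivebresib, BAIAP3 stood above every other calcium sensor in any group.

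Of the 6 SNARE proteins and complexins, romidepsin raised 2, quisinostat 3 and mivebresib 3. CPLX2 was over the filter's cutoff in the quisinostat libraries only. SNAP25, the neuronal membrane SNARE, had 15 and 15 counts in control, 31 and 27 with romidepsin, 251 and 244 with quisinostat, and 10 and 6 with mivebresib. The quisinostat libraries stood far above the rest. The log2 FC was 0.88 ± 0.27, 3.85 ± 0.22 and -0.88 ± 0.34, of which the last did not pass (edgeR adjusted p = 0.0782). The rise with romidepsin (edgeR adjusted p = 0.0384) was lost in DESeq2 (0.0807), in limma-voom (0.0633) and without any 1 library, with a highest value of 0.176 without romidepsin replicate 1. Complexins clamp the SNARE complex until calcium arrives. CPLX1 went from 68 and 56 counts to 50 and 64 with romidepsin, 238 and 208 with quisinostat and 162 and 172 with mivebresib, and CPLX2 from 0 and 0 to 3 and 4, 34 and 21, and 0 and 0. The quisinostat level of CPLX2 was at least 8.09-fold above the floor.

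The partners of SNAP25 in the fusion complex had smaller differences. VAMP2, the vesicle SNARE, had 736 and 665 counts in control, 587 and 648, 739 and 677, and 631 and 629 with the drugs. Its log2 FC was -0.25 ± 0.09, -0.16 ± 0.09 and -0.14 ± 0.09, none past the test, and the quisinostat value turned to 0.036 when library size alone was used for scaling. Its 95% confidence interval with quisinostat, -0.37 to 0.05, lay below the value of SNAP25. STX1A, syntaxin 1A, had 59 and 52 counts in control, 100 and 105, 83 and 85, and 89 and 130 with the drugs. It rose with romidepsin (log2 FC 0.82 ± 0.21, edgeR adjusted p = 0.0197, 0.0861 without romidepsin replicate 2) and mivebresib (0.99 ± 0.21), and stood at 0.42 ± 0.21 with quisinostat (edgeR adjusted p = 0.133). VAMP1 rose with mivebresib, from 45 and 60 to 103 and 104. VAMP1 shares 339 exonic bases with TAPBPL, which had 264 and 270 counts there against 236 and 360 in control.

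Of the 12 active zone, priming and RAB3 genes, romidepsin raised 6, quisinostat 8 and mivebresib 6, and mivebresib lowered 2. UNC13A, which primes vesicles by opening syntaxin, had 278 and 349 counts in control, 1196 and 1077 with romidepsin, 3660 and 3878 with quisinostat, and 123 and 110 with mivebresib. No groups overlapped, and mivebresib stood lowest. Its log2 FC was 1.79 ± 0.13, 3.41 ± 0.13 and -1.42 ± 0.15 (edgeR adjusted p = 8.84e-05, 9.21e-07 and 0.000124). UNC13B, the relative used by more tissues, went the other way with mivebresib: 1643 and 1848 counts in control, 2011 and 1916, 2862 and 2866, and 3317 and 3157 with the drugs, a log2 FC of 0.10 ± 0.09, 0.53 ± 0.09 and 0.90 ± 0.09. Per length, UNC13A made up 22% of the RNA of UNC13A, UNC13B and UNC13C in control, 47.7% after romidepsin, 67.5% after quisinostat and 5.42% after mivebresib.

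The UNC13A promoter, chr19:17688325-17688604 on the minus strand of GRCh38.p14, is shown for its match to both REST parts on the opposite strand, in capitals, with the left part beginning 7 bases after the start and the right part at -8.
UNC13A: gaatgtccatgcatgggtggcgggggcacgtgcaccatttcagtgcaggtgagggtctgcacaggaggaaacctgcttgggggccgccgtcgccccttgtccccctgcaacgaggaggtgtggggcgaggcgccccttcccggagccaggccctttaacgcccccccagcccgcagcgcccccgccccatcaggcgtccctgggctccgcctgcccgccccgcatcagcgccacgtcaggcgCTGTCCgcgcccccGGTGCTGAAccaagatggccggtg

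The RIM proteins tether vesicles to calcium channels. RIMS2 fell with mivebresib and rose with both HDAC inhibitors (157 and 136 counts in control, 392 and 436, 879 and 842, and 83 and 67 with the drugs). RIMS3 rose with all 3 (149 and 104, 259 and 300, 672 and 679, and 198 and 169), although the rise with mivebresib was lost without mivebresib replicate 1 (edgeR adjusted p = 0.174). RIMS4 rose with all 3 as well (43 and 35, 150 and 145, 351 and 373, and 194 and 175), with a log2 FC of 1.85 ± 0.16, 3.03 ± 0.15 and 2.25 ± 0.16. RIMS4 shares 506 exonic bases with KCNK15 on the other strand, whose counts were also higher with every drug than in control, but lower with mivebresib than with romidepsin (19 and 16, 60 and 67, 110 and 116, and 40 and 23). Whether the counting used strand was not given in the sources used here. The part of shared bases in the values of RIMS4, and of the other members that overlap a gene, was not tested.

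Bassoon and piccolo are the giant scaffold proteins of the active zone. BSN had 26 and 28 counts in control, 36 and 30 with romidepsin, 41 and 52 with quisinostat, and 168 and 196 with mivebresib, which stood apart from all others. Only the last of its log2 FCs, 0.22 ± 0.25, 0.60 ± 0.24 and 2.76 ± 0.21, passed (edgeR adjusted p = 2.3e-05). PCLO instead was highest with quisinostat (11 and 7, 23 and 17, 84 and 80, and 38 and 24) and rose with mivebresib as well. The RAB3 GTPases sit on the vesicle and bind RIM. RAB3A, at chr19:18196784-18204074, rose with romidepsin and quisinostat (189 and 169 counts in control, 414 and 403, and 443 and 361) and had 273 and 206 with mivebresib (log2 FC 0.43 ± 0.17, edgeR adjusted p = 0.0627). It shares 165 exonic bases with MPV17L2 on the other strand, which had 885 to 1409 counts. RAB3B rose with all 3 drugs (732 and 828, 1382 and 1342, 2440 and 2562, and 1082 and 1120). UNC13C had 10 to 36 counts and passed no test against control, while RAB3C and RIMS1 had at most 6 counts in any library.

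All 3 endocytosis genes rose with quisinostat. Of these, AMPH was under the filter's cutoff in both control libraries and entered the test through the drug libraries. SNAP91 was over the cutoff in the quisinostat libraries only, so that it had to be high there to be tested. AMPH, amphiphysin, a membrane-bending protein that recruits dynamin, had 6 and 5 counts in control, 34 and 15 with romidepsin, 182 and 185 with quisinostat, and 74 and 84 with mivebresib. Amphiphysin's log2 FC was 2.07 ± 0.48, 4.85 ± 0.37 and 3.83 ± 0.40, and the romidepsin value dropped to 1.37 and lost its call without romidepsin replicate 1 (edgeR adjusted p = 0.0796). SNAP91, a neuronal clathrin adaptor, was at 0 in both control libraries, 3 and 5 with romidepsin, 39 and 42 with quisinostat, and 5 and 3 with mivebresib. The quisinostat level was at least 11.9-fold above the floor of 3 counts per library, and the calls with romidepsin and mivebresib did not hold without 1 library (highest edgeR adjusted p = 0.098 and 0.0611). DNM1, neuronal dynamin, rose with quisinostat (44 and 28 to 230 and 311) and had 34 and 59 with romidepsin and 41 and 44 with mivebresib. DNM1 has 17 annotated pseudogenes, 15 of them in the table, so that its counts are uncertain.

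The dense-core granule genes held both the highest control levels and the largest fall of any member. SCG5 encodes the chaperone that the convertase PCSK2 needs to mature. SCG5, at chr15:32641676-32697098, had 656 and 476 counts in control, 331 and 384 with romidepsin, 306 and 247 with quisinostat, and 22 and 7 with mivebresib. Every drug library was below both controls. The log2 FC was -0.72 ± 0.22, -1.21 ± 0.22 and -5.26 ± 0.33, and with mivebresib the level was 38.3-fold lower (edgeR adjusted p = 9.88e-06), or 79.6-fold without mivebresib replicate 1 and 25.1-fold without mivebresib replicate 2. The fall with romidepsin (edgeR adjusted p = 0.0365) was lost under library size alone (0.0554), under upper-quartile factors (0.0562) and without 3 of the 4 libraries in turn, with 0.208 without romidepsin replicate 1. PCSK2 itself had 4 to 17 counts and passed no test.

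PCSK1, the convertase of the early secretory granule, had 1340 and 1954 counts in control, 2458 and 2367 with romidepsin, 3145 and 3483 with quisinostat, and 768 and 647 with mivebresib. The HDAC inhibitor libraries were all above and the mivebresib libraries both below the controls. Its log2 FC was 0.48 ± 0.17 (edgeR adjusted p = 0.0668), 0.82 ± 0.17 (0.00418) and -1.21 ± 0.18 (0.000817). VGF, a granin-like precursor of several peptides and the most expressed member per length, had 2573 and 2782 counts in control, 3524 and 4085, 3647 and 5298, and 3624 and 3298 with the drugs. All 6 drug libraries were above the controls, but the quisinostat rise alone passed (log2 FC 0.56 ± 0.17, edgeR adjusted p = 0.0219, and 0.196 without quisinostat replicate 2), and the other values were 0.44 ± 0.17 and 0.38 ± 0.17.

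The promoters of VGF (chr7:101165540-101165819) and PCSK1 (chr5:96433219-96433498), both on the minus strand of GRCh38.p14, are shown because these 2 members, both among the highest per length in control, each hold the cyclic AMP element, beginning at -79 and -77. Capitals mark it and, in VGF, the right REST part on the opposite strand.
VGF: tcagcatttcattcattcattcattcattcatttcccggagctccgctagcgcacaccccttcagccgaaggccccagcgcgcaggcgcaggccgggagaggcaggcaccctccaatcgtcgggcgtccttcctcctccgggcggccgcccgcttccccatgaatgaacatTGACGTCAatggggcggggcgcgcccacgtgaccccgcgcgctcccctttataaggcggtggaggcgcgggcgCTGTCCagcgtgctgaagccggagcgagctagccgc
PCSK1: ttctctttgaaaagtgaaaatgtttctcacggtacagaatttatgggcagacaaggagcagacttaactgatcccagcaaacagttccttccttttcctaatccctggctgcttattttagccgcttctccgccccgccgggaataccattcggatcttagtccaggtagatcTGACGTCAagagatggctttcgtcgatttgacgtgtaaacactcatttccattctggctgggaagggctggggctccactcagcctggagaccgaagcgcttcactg

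The classical granins were low in control, and SCG2, CHGB and SCG3 stood highest with quisinostat. SCG2 and CHGB were over the filter's cutoff in the quisinostat libraries only, so that they had to be high there to be tested. SCG2, secretogranin 2, had 1 and 2 counts in control, 6 and 9 with romidepsin, 42 and 46 with quisinostat, and 3 and 2 with mivebresib. The ratio of summed counts with quisinostat was 25.9 (95% counting interval 8.57 to 128). The SCG2 rise with romidepsin was lost in DESeq2 (adjusted p = 0.0903) and without any 1 library (highest edgeR adjusted p = 0.163, without control replicate 1). CHGB, chromogranin B, rose with quisinostat from 4 and 4 to 19 and 23 counts, and had 8 and 4 with romidepsin and 3 and 1 with mivebresib. CPE, the carboxypeptidase that trims cut peptides, rose with quisinostat from 7 and 0 to 44 and 58, and its replicates differed widely with romidepsin (8 and 1) and mivebresib (8 and 35). The quisinostat calls of CHGB and CPE were lost without quisinostat replicate 2 (edgeR adjusted p = 0.0503 and 0.0564). SCG3, secretogranin 3, rose with quisinostat from 8 and 17 to 51 and 50, beside 7 and 19 with romidepsin and 28 and 25 with mivebresib. CHGA, chromogranin A, had 1 and 0 counts in control, 1 and 10 with romidepsin, 10 and 12 with quisinostat and 6 and 19 with mivebresib, and these calls did not hold without quisinostat replicate 2 (edgeR adjusted p = 0.108) or mivebresib replicate 2 (0.165).

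**Figure D3:**
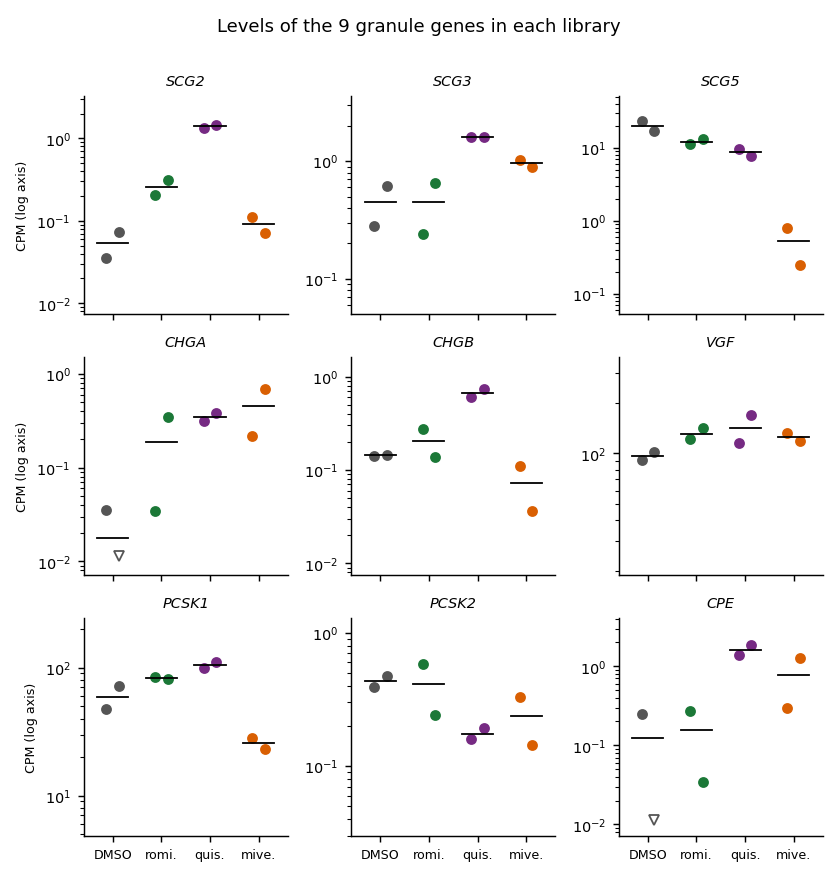
Points give the level of the 9 granule genes in each library, in CPM on a log axis with its own range in each panel, lines the mean of the 2 libraries, and open triangles 0 counts. SCG5 fell with all 3 drugs, to 22 and 7 counts with mivebresib, whereas SCG2 and CHGB were highest with quisinostat.

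The 2 HDAC inhibitors were given at the same concentration and time, and compared directly. The paper reports that romidepsin reduced MP38 viability at lower concentrations than quisinostat. The drug and its dose relative to potency therefore cannot be told apart here. With quisinostat 35 members were higher than with romidepsin and 0 lower in edgeR's test, where 21% of all genes were higher and 14.6% lower. Some of the 35 entered the test through the quisinostat libraries alone, and among the 31 members over the cutoff in both control libraries 19 were higher and 0 lower. At an unadjusted p below 0.05, in DESeq2 and in limma-voom the number lower was also 0, and it was 1 with only the 4 libraries of the comparison. Of the 35, 22 kept the call in every other fit and without each library in turn, 4 more kept it except in a fit that left them out as too low, and the call of SYT9 was lost most often (8 times, highest edgeR adjusted p = 0.23 without romidepsin replicate 2). Beyond a log2 FC of 1.5 there were 25 members (5.41% of all genes), or 16 when genes under a mean of 1 CPM were left out. The largest log2 differences among members with more than 3 counts in a control library were those of SYT5 (3.56 ± 0.28), SYT13 (3.40 ± 0.25), CPE (3.35 ± 0.90), SNAP25 (2.97 ± 0.19) and SYT2 (2.96 ± 0.15). The CPE value ranged with single libraries, from 2.54 without romidepsin replicate 2 (edgeR adjusted p = 0.119) to 5.38 without romidepsin replicate 1, and its call was also lost without either quisinostat library. The drugs did not differ past the test for SV2A (0.11, 95% confidence interval -0.30 to 0.52), SYNGR3 (0.12, -0.29 to 0.52), RAB3A (-0.14, -0.49 to 0.21), VGF (0.12, -0.27 to 0.50), VAMP2 (0.08, -0.13 to 0.29) and STX1A (-0.40, -0.86 to 0.06). Their intervals leave out a difference of 1.5 in either direction. The values of SV2A and VGF were -0.067 and -0.22 without quisinostat replicate 2.

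**Figure D4:**
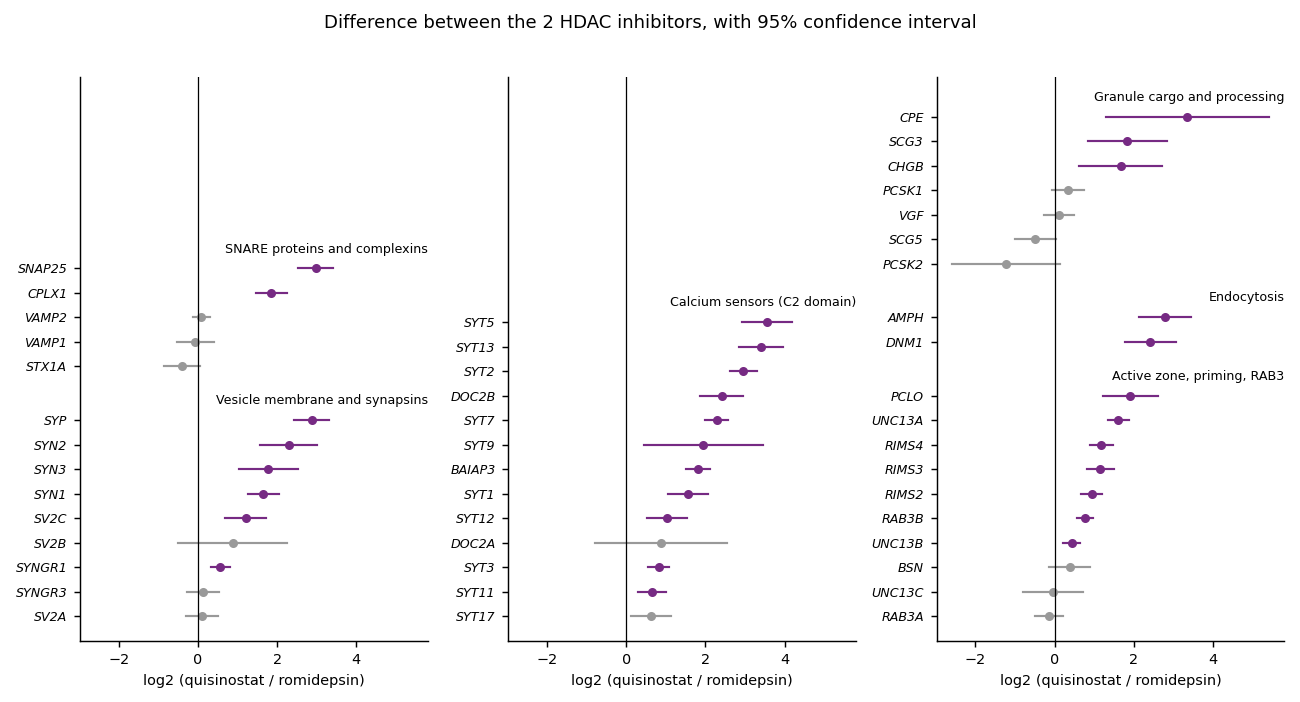
Points give the log2 difference between quisinostat and romidepsin, both at 40 nM for 24 h, and lines its 95% confidence interval from edgeR, for the members with more than 3 counts in a control library, purple where the adjusted p was below 0.05. SYT5 lies furthest right at 3.56, and the intervals of SV2A, SYNGR3, VAMP2 and RAB3A cross 0.

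Mivebresib, given at another concentration, was also compared with each HDAC inhibitor. Against quisinostat 5 members were higher (BAIAP3, BSN, STX1A, UNC13B and VAMP1) and 37 lower, where 26.2% of all genes were higher and 31.5% lower. Here too some of the 37 were tested only through the quisinostat libraries, and among the 31 members over the cutoff in control 5 were higher and 22 lower. The number higher was 3 under library size alone, 2 without quisinostat replicate 1, and 3 without quisinostat replicate 2 or mivebresib replicate 1. BAIAP3 and BSN, 2 of the 5, were higher by more than 1.5 (1.73% of all genes). Of the 37, 26 were lower by more than 1.5 (12.6% of all genes), among them SYT2 (-6.17 ± 0.21), UNC13A (-4.82 ± 0.15), SNAP25 (-4.74 ± 0.24) and SYT17 (-4.43 ± 0.35). Against romidepsin 10 were higher and 19 lower, where 23.7% and 25.2% of all genes were. Of the 19, 13 were lower by more than 1.5 (6.7% of all genes). Of the 10, 5 were higher by more than 1.5 (2.52% of all genes): BAIAP3 (3.99 ± 0.14), BSN (2.53 ± 0.20), SYP (1.92 ± 0.20), AMPH (1.76 ± 0.30, and 2.46 without romidepsin replicate 1) and CPLX1 (1.63 ± 0.18). Both comparisons share the mivebresib libraries.

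Relatives of the members that serve secretion in many cell types were read beside them, although UNC13D (1 to 10 counts) and VAMP8 (8 to 24) were near absent here. Of 37 such genes 36 were tested, and 3 rose and 6 fell with romidepsin (8.11% and 16.2% of the list, against 15.2% and 15.8% of all genes). With quisinostat 3 rose and 11 fell (8.11% and 29.7%, against 28% and 25.1%), and with mivebresib 5 and 6 (13.5% and 16.2%, against 22.2% and 24.1%), so that the shares that fell with the HDAC inhibitors were near those of all genes. Beyond a log2 FC of 1.5, 0 were raised in edgeR, at an unadjusted p below 0.05 or in DESeq2, and 1 with quisinostat in limma-voom. SNAP23, the relative of SNAP25, had 2981 and 2643 counts in control, 3666 and 3898 with romidepsin, 3680 and 3454 with quisinostat, and 2485 and 2668 with mivebresib. With quisinostat SNAP25 made up 10.9% of the RNA of SNAP25 and SNAP23 per length, against 0.932% in control. The synaptophysin relative SYPL1 had a log2 FC of -0.33 ± 0.14 with quisinostat beside 3.95 ± 0.22 for SYP, and DNM2 of -0.41 ± 0.07 beside 2.73 ± 0.29 for DNM1. FURIN, the relative of PCSK1, passed no test (-0.04 ± 0.10, -0.01 ± 0.10 and -0.22 ± 0.10). RAB27A, a GTPase that docks melanosomes and granules, fell with mivebresib from 2635 and 2219 to 524 and 546 counts.

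**Figure D5:**
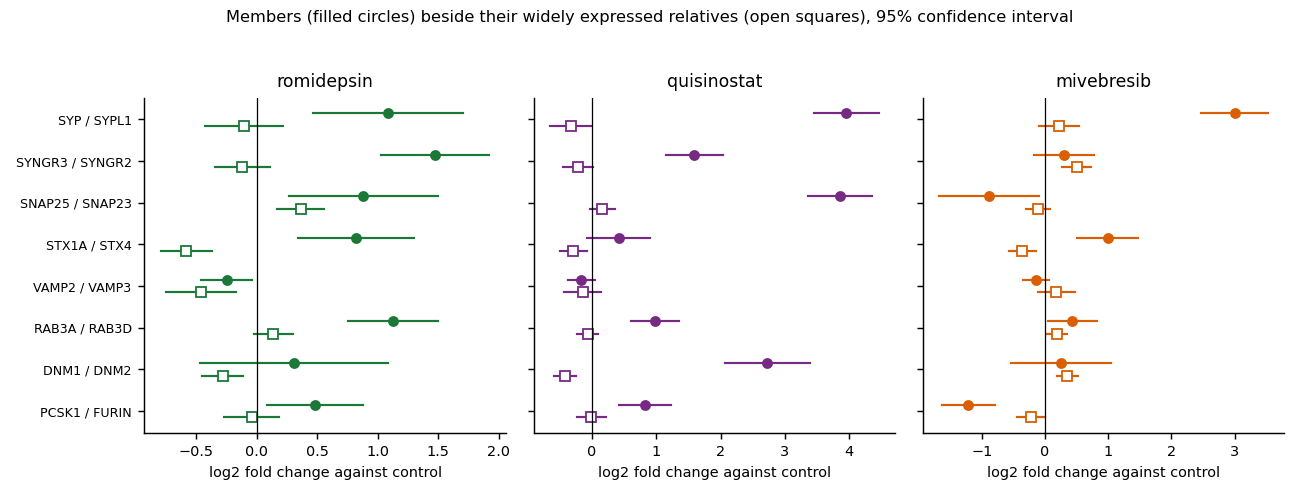
Filled circles give the log2 fold change against control of 8 members and open squares that of the widely expressed relative named beside each, with 95% confidence intervals from edgeR and a different horizontal range in each panel. SYP, SNAP25 and DNM1 lie far right of SYPL1, SNAP23 and DNM2 with quisinostat, and the VAMP2 and VAMP3 intervals overlap in every panel.

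Markers of other cell types were read beside these results. Among 11 neuronal markers outside the set, 8 were tested, and 5 rose and 1 fell with romidepsin, 7 rose with quisinostat and 4 with mivebresib. Of all genes, 15.2% rose and 15.8% fell with romidepsin, 28% rose with quisinostat and 22.2% with mivebresib. ELAVL3 and STMN2 were over the filter's cutoff in the quisinostat libraries only. NEFL, a neurofilament, went from 3 and 7 counts to 191 and 168 with quisinostat and had 7 and 4 with mivebresib. TUBB3, neuronal tubulin, fell with romidepsin, from 2271 and 2090 to 1336 and 1383, and rose with mivebresib to 10550 and 9665. Their summed level was 153 and 147 CPM in control, 219 and 213 with romidepsin, 342 and 329 with quisinostat and 635 and 592 with mivebresib, of which TUBB3 made up 386 and 348 CPM with mivebresib. INSM1, a transcription factor of neuroendocrine cells, fell from 27 and 29 counts to 16 and 11 with romidepsin and to 5 and 5 with mivebresib, and had 23 and 14 with quisinostat. Of the 7 melanocytic markers romidepsin lowered 1, quisinostat 3 and mivebresib 4, among them SOX10 (6109 and 5527 counts in control, 4347 and 4913, 3366 and 3575, and 1564 and 1468). The shares of all genes lowered were 15.8%, 25.1% and 24.1%, in the same order of drugs. Of 5 fibroblast markers COL1A1 rose with romidepsin and quisinostat (40 and 45 to 143 and 110 and to 327 and 251), PDGFRB fell with mivebresib (10 and 18 to 5 and 1), and the other 3 were not tested, and of 4 immune markers CD68 alone was tested and did not pass. The part of any of these in the results for the members was not tested.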

How the data were processed

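RNA from 8 wells of MP38 cells was sequenced by the authors with a strand-specific mRNA protocol and paired-end reads and processed with BioJupies. They deposited raw counts per gene symbol on hg38, per the labels, which were used as deposited. The aligner, annotation and strand setting of the counting are not given in the sources used here. Their log-scaled and quantile-normalized tables were not used here. Groups came from the sample labels. Counts were tested in R 4.3.3 with edgeR 4.0.16: TMM scaling, filterByExpr by group (minimum count 10), a quasi-likelihood fit of all 8 libraries and Benjamini-Hochberg adjustment over 15085 genes, on simulated counts first. A gene was called at an adjusted p below 0.05, and the study's log2 FC threshold of 1.5 was used as a second rule. The common biological coefficient of variation was 0.0938. Where both control libraries had at most 3 counts, ratios were given as bounds or with 95% counting intervals, which cover counting error only. RPKM used GENCODE 29 exon lengths, found for all 54 members. Promoters came from RefSeq for 40 members. The members and all gene lists were chosen with earlier results of these data known. Values in every library were given for members past both thresholds and for the 3 highest in control per role. Other lists were described by counts and at most 4 genes each, beside paired relatives and genes overlapping a member. Alternatives were DESeq2 1.42.0, limma-voom (limma 3.58.1), other scalings and filters, the 4 libraries of a comparison alone, a replicate block, leaving out each library, and other thresholds.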

Additional observations from a re-analysis of the deposited data

How the results depend on the processing

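Of 312 recounts of members called across the alternatives, 290 stayed within 1.5 times the reported count and 22 did not. The number raised by romidepsin was 15 at an adjusted p below 0.01 and 15 to 23 with 1 library left out. The number lowered by romidepsin, 1, became 0 under library size alone, under upper-quartile factors, at an adjusted p below 0.01 and with a log2 FC over 1, and 0 to 2 with 1 library left out. The number lowered beyond 1.5 by mivebresib, 1, was 1 to 3 with 1 library left out. Between quisinostat and romidepsin, 16 rather than 25 members were higher by more than 1.5 at a mean CPM of at least 1, and 1 rather than 0 was lower in a fit of the 4 libraries alone. The number higher with mivebresib than with quisinostat, 5, was 3 under library size alone, 3 at an adjusted p below 0.01, 2 with a log2 FC over 1, and 2 to 4 with 1 library left out, and against romidepsin 6 rather than 10 had a log2 FC over 1. The causes were not tested.

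Of the single-gene values under these alternatives, 2553 kept direction and side of the threshold, 167 lost the call, 22 gained it and 11 changed sign, all of these among members without a call. With 1 library left out, the log2 FC ran from -0.16 to 0.18 for BAIAP3 and -0.15 to 0.67 for DNM1 with romidepsin, and from -0.016 to 0.72 for SYNGR3, -0.67 to 0.68 for SYT1 and -0.019 to 0.59 for DNM1 with mivebresib. Between quisinostat and romidepsin it ran from -0.067 to 0.22 for SV2A, -0.22 to 0.35 for VGF and -0.20 to 0.074 for VAMP1. Under library size alone VAMP2 with quisinostat was 0.036 and VAMP1 between the HDAC inhibitors 0.064. Library-size scaling moved the median of all genes with quisinostat to 0.20.

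Replicate numbers did not pair the samples: deviations of same-numbered libraries correlated at -0.16 to 0.16 between groups. With the replicate block, romidepsin raised 23 members, quisinostat 43 and mivebresib 21, and 34 were higher with quisinostat than with romidepsin. Leaving out a library left its group with 1, assumed to vary like the others. With 2 libraries a group, members near 0 in control were limited by depth.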

Other observations

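Genes of release outside the set were read from a list of 45, of which 36 were tested: 14 rose and 0 fell with romidepsin, 24 rose and 4 fell with quisinostat, and 11 rose and 11 fell with mivebresib. These were 31.1% and 0% of the list with romidepsin (15.2% and 15.8% of all genes), 53.3% and 8.89% with quisinostat (28% and 25.1%), and 24.4% each way with mivebresib (22.2% and 24.1%). The shares of the list are of all 45 genes, untested ones included, whereas those of all genes are of genes tested. The shares are therefore not on the same base. Some genes of the list, SLC32A1 among them, were over the filter's cutoff in the quisinostat libraries only. They could be tested only because they were high there. SNCB and ERC2 were under the cutoff in both control libraries and entered the test through the drug libraries. SNCB, beta-synuclein, a presynaptic protein, had 6 and 8 counts in control, 58 and 60 with romidepsin, 404 and 385 with quisinostat, and 127 and 125 with mivebresib. ERC2, an active zone scaffold, went from 2 and 1 to 28 and 42, 99 and 92, and 29 and 15.

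The vesicular transmitter transporters took different directions. SLC32A1, the transporter for GABA, was at 0 in both control libraries, 7 and 4 with romidepsin, 45 and 48 with quisinostat and 0 and 0 with mivebresib. SLC17A6, a glutamate transporter, fell with mivebresib from 57 and 70 counts to 1 and 3 (log2 FC -4.90 ± 0.43, edgeR adjusted p = 4.83e-05) and passed no test with romidepsin (104 and 80) or quisinostat (75 and 81).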
